A study of Mus musculus with 2 samples.

Results

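The genes Spp1, Gpnmb, Trem2, Apoe, Lpl, Cd36, Fabp4, Fabp5, Lgals3 and Cd9 are known from macrophages that take up, store and pass on lipid, and they were described here across the cell types of injured mouse muscle. They were taken by name from a list of 10 and not by a cutoff on a measured value, but the list was chosen with earlier results of these data known. All 10 were among the 19169 genes of the deposited single-cell table. The muscle was the gastrocnemius of male C57BL/6J mice, taken 14 days after an injection of CTX (cardiotoxin), a snake venom toxin that kills muscle fibers and leaves the tissue to regenerate. Animals of both groups received the toxin, and no uninjured muscle was measured. One group was WT and the other GSDME-KO, littermates that differ in the gene for gasdermin E, a pore-forming protein of pyroptotic cell death. Each genotype was represented by 1 droplet library of dissociated cells. Groups had 5 mice each, and whether the animals of a group were pooled is not given in the sources used here. On GRCm38, which is mm10, the genes lie as follows: Spp1 at chr5:104435118-104441050 (+), Gpnmb at chr6:49036546-49070929 (+), Trem2 at chr17:48346401-48354147 (+), Apoe at chr7:19696109-19699188 (-), Lpl at chr8:68880491-68907448 (+), Cd36 at chr5:17781690-17888801 (-), Fabp4 at chr3:10204088-10208576 (-), Fabp5 at chr3:10012548-10016607 (+), Lgals3 at chr14:47367751-47386160 (+) and Cd9 at chr6:125460266-125494791 (-). All are annotated as protein-coding, and UMIs were counted per gene, not per exon.

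Macrophages that meet dying cells and fat engulf membranes and lipoproteins, break them down in lysosomes, and either store the lipid in droplets or return it to other cells. Trem2 is a surface receptor that binds lipids and Apoe-bearing particles and signals through Tyrobp. Cd36 is a scavenger and fatty acid receptor, Fabp4 and Fabp5 are intracellular fatty acid carriers, Lpl is the lipase that releases fatty acids from lipoproteins, and Apoe is the apolipoprotein that carries cholesterol out of the cell. Gpnmb is a glycoprotein of lysosome-rich phagocytes, Spp1 encodes the secreted matrix protein osteopontin, Lgals3 encodes galectin-3, a sugar-binding lectin that marks damaged lysosomes, and Cd9 is a tetraspanin of the cell surface. Several of these genes also serve other tissues, among them Fabp4 and Cd36 in capillary endothelium, Lpl in fat-forming cells and Cd9 in Schwann cells.

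Promoter windows of the genes that were higher in one macrophage group than in another are shown first, since that comparison holds the most of the 10 genes. The RefSeq table on GRCm38.p6 held windows of 300 bases, from 250 bases before to 50 after a start, for 7 of the 10 genes (10 windows). Lpl, Fabp4 and Fabp5 had no entry. The 5 windows printed are chr5:104434861-104435160 (Spp1, + strand, the first of its 2 windows), chr6:49036268-49036567 (Gpnmb, + strand), chr17:48346151-48346450 (Trem2, + strand), chr14:47373610-47373909 (Lgals3, + strand) and chr6:125494711-125495010 (Cd9, - strand). Each runs 5′ to 3′ on the strand of the gene, and capitals mark matches to a searched motif.
Spp1: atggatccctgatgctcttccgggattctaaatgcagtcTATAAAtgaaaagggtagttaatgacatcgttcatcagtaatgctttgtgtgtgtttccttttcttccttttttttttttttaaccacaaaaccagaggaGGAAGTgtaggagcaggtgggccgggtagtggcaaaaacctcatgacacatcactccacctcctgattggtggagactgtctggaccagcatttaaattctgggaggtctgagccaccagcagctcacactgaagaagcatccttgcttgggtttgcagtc
Gpnmb: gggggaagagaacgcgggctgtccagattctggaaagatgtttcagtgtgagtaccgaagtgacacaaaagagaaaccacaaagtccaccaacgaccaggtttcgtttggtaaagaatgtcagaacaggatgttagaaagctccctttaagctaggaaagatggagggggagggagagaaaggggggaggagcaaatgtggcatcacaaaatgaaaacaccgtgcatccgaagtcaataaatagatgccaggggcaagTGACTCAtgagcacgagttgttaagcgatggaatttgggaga
Trem2: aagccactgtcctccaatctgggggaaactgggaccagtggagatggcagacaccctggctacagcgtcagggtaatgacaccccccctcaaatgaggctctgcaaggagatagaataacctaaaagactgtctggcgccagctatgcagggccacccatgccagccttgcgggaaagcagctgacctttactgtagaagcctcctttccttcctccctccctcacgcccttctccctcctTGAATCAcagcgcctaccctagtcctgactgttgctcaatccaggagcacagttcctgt
Lgals3: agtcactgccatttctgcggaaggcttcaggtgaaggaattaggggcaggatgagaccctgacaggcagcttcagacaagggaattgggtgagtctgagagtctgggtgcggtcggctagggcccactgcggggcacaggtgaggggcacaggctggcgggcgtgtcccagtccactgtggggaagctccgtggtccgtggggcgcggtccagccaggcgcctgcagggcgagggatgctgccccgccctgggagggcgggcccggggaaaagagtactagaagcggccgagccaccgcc
Cd9: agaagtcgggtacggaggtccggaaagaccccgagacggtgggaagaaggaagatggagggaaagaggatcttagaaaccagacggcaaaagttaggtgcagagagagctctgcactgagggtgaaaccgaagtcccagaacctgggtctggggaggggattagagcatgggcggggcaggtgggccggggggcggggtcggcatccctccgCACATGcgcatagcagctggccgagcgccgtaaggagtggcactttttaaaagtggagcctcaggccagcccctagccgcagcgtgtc
The motifs, searched on both strands, were TGANTCA of AP-1 factors, CATGTG and CACGTG of basic helix-loop-helix factors, GGAAGT of ETS factors and the TATA box TATAAA. Gpnmb held TGANTCA starting 8 bases after its start and Trem2 held it 9 bases before. That motif was in 7.81% of the 32851 windows of the table. Spp1 held GGAAGT (in 23.8% of windows) 111 bases before its start and TATAAA (13.6%) 211 bases before it. Cd9 held CATGTG (14.2%) on the other strand, 38 bases before its start, and the Lgals3 window held none of the 5. CACGTG, found in 7.15% of all windows, was in none of the 10. A match is a description of letters only, and none of these data measured binding.

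A UMI is a tag that marks 1 captured RNA molecule. There were 6354 cells labelled WT, summing to 44758518 UMIs (5740 in the median cell), and 7078 labelled GSDME-KO, summing to 50930010 (5962.5 in the median cell). Only 4 cell barcodes occurred in both libraries, and no mitochondrial gene was listed. Gsdme itself was read as 225 UMIs labelled WT and 237 labelled GSDME-KO. On the CPM scale, which sets the UMIs of each group to a common total, these are 5.03 and 4.65, and their log2 ratio was -0.11 with a 95% interval from -0.38 to 0.16. Over all cells the targeted transcript was thus not lower in the library labelled GSDME-KO beyond counting error. In FAP-like cells (described below), which held 106 and 94 of these UMIs, it was lower, at 5.84 and 4.12 CPM and -0.50 (-0.92 to -0.09) on the log2 scale, and in the macrophage, dendritic and endothelial groups the interval included 0. The deleted part of the gene is not given in the sources used here, so the count does not check the labels, and every direction between libraries below rests on them.

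With 1 library per genotype, no difference between the libraries has a replicate check and no p-value is given. Intervals cover counting error only, and library, animal and genotype cannot be told apart. Cells were grouped by clustering that left the 10 genes out, and groups were named "-like" from fixed markers. There were 931 and 1140 macrophage-like cells in the libraries labelled WT and GSDME-KO, and values below are given in this order. Within them lay a resident-like group (451 and 566 cells, led by Lyve1, Fcna and Mucl1), an Ms4a7 group (370 and 431 cells, led by Gpnmb, Acp5 and Il10) and a group led by Fn1, Ear2 and Lyz1 that met no fixed name, here called Lyz1 Ear2 (110 and 143 cells). Folr2, a folate receptor of resident macrophages, stood at 1198 and 932 CPM in the resident-like group and at 109 and 169 CPM in the Ms4a7 group. Ms4a7, a membrane protein of monocyte-derived macrophages, stood at 787 and 940.3 CPM in its group and at 298 and 383 CPM in the resident-like one. Other groups were dendritic-like (115 and 128 cells), endothelial-like (1223 and 1192), FAP-like (fibro-adipogenic progenitors, 2121 and 2544) and smaller ones. Clusters without a name held 17.0% and 16.01% of cells.

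By share of UMIs, which also follows how many cells a group has, most of the list did not lie mainly in macrophage-like cells in both libraries. Macrophage-like cells, 14.7% and 16.1% of cells, held 92.5% and 92.7% of the UMIs of Trem2, 80.3% and 82.5% of those of Apoe and 65.9% and 71.3% of those of Lgals3. These 3 genes had most of their UMIs in macrophage-like cells in both libraries. Spp1 had 39.0% and 57.9% there. FAP-like cells, 33.4% and 35.9% of cells, held 57.5% and 60.9% of Gpnmb, 53.6% and 58.0% of Lpl, and 46.9% and 57.8% of Cd9. By level, Gpnmb was nonetheless higher in macrophage-like cells, at 111 and 126 CPM against 58.4 and 64.6 CPM in FAP-like cells. Spp1 was also higher there, at 135 and 199 against 12.4 and 22.1 CPM, whereas Lpl and Cd9 were lower there than in FAP-like cells. Endothelial-like cells held 52.5% and 48.1% of Cd36, 60.8% and 55.2% of Fabp4 and 51.9% and 40.03% of Fabp5, and clusters without a name held a further 36.3% and 42.2% of Fabp4. The genes are therefore called below the 10 genes, and their values are given by cell group.

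**Figure D1:**
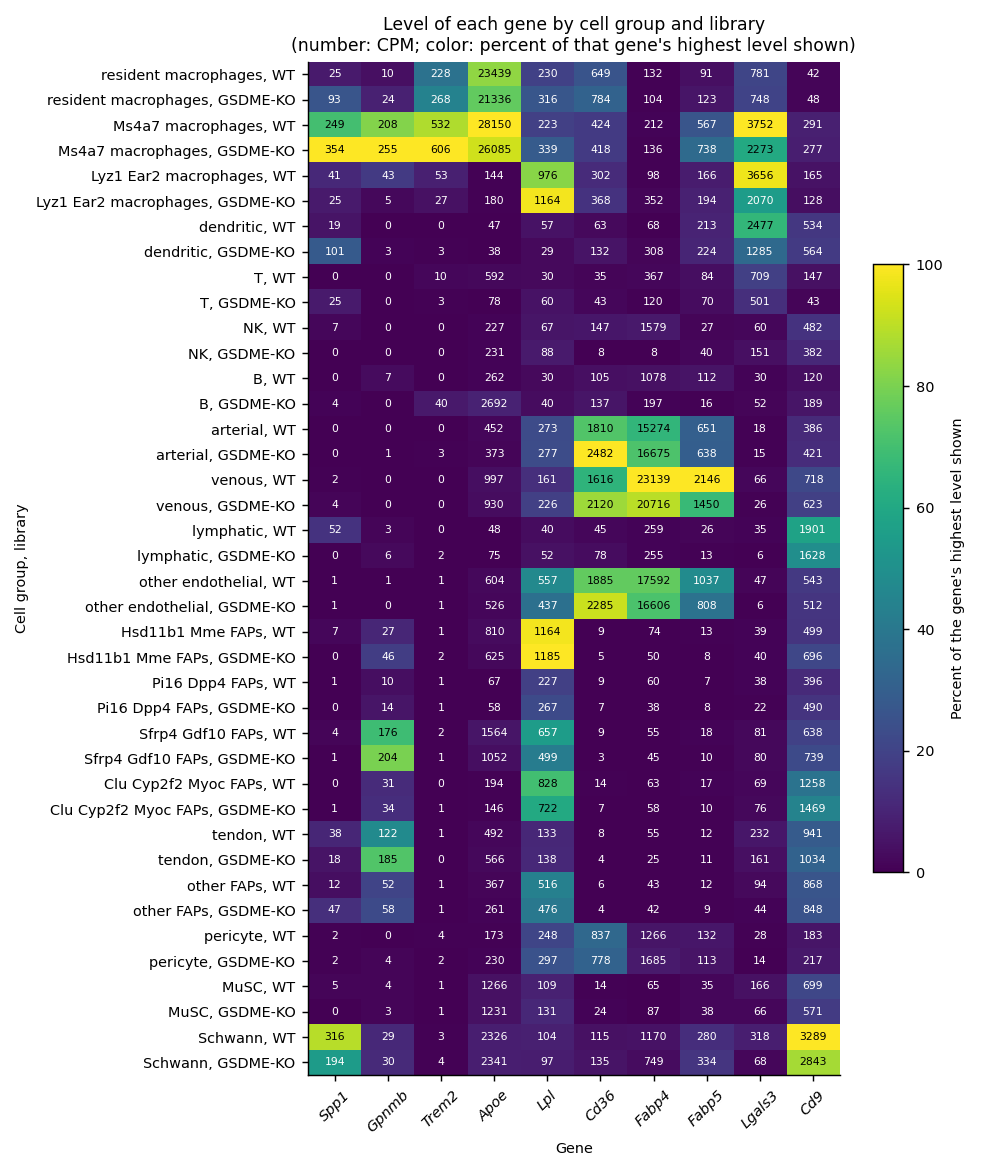
Level of each of the 10 genes (columns) in each cell group and library (rows), as CPM; the color is the percent of that gene's own highest level shown. Gpnmb and Trem2 are highest in Ms4a7 macrophages in both libraries, while Spp1 is highest there only in the library labelled GSDME-KO and in Schwann-like cells in the other. Fabp4 and Fabp5 are highest in venous endothelium and Cd9 in Schwann-like cells, with Lpl near its highest in both Lyz1 Ear2 macrophages and Hsd11b1 Mme FAPs. Neutrophil-, mast- and mature muscle-like cells and clusters without a name are not drawn.

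Lymphocytes served as the measure of RNA from other cells. After every cell was thinned to 1000 UMIs, Gpnmb was found in 0% of T-like and NK-like cells of both libraries and Trem2 in 0% of T-, NK- and B-like cells. These groups held 28 to 86 cells each, so such zeros bound a share only loosely. Apoe was found in 10.6% to 29.8% of the lymphocytes, and in B-like cells labelled GSDME-KO 5 cells held 93.7% of its UMIs. Lgals3 was found in 33.3% and 25.9% of T-like cells, and whether this was their own RNA was not tested. The Apoe share of all FAP-like cells, 23.0% and 20.7%, lay within the range of the lymphocytes, although the share in 1 FAP group given below lay above it.

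The receptor and surface genes were higher in the Ms4a7 group than in resident-like macrophages. Gpnmb stood at 10.5 and 23.8 CPM in resident-like and at 208 and 255 CPM in Ms4a7 macrophages, which gives log2 ratios between the groups of 4.31 (labelled WT) and 3.42 (labelled GSDME-KO). Trem2 stood at 228 and 268 CPM in resident-like and at 532 and 606 CPM in Ms4a7 macrophages, 1.22 and 1.18 on the log2 scale. Cd9 stood at 42.5 and 48.4 against 291 and 277 CPM, 2.78 and 2.52 on the log2 scale. For each of these genes both libraries' values in the Ms4a7 group lay above both in the resident-like group, and the counting intervals did not overlap.

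Spp1, Lgals3 and Fabp5 followed the same order. Spp1 stood at 25.4 and 93.4 CPM in resident-like and at 249 and 354 CPM in Ms4a7 macrophages, 3.30 and 1.92 on the log2 scale. For Lgals3 the levels were 781 and 748 CPM against 3752 and 2273 CPM, 2.26 and 1.60 on the log2 scale. Fabp5 was at 91.0 and 123 CPM against 567 and 738 CPM, 2.64 and 2.59 on the log2 scale. In all, 6 of the 10 genes were past 2-fold higher in the Ms4a7 group in both libraries, where 2.78% of the 6621 genes compared were, and none of the 10 was past 2-fold lower, where 4.20% were. Although the 10 genes were left out of the clustering, genes that vary with them were not, so the ratios are descriptions of the groups.

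The lipoprotein and uptake genes did not follow that order. Apoe, the apolipoprotein, stood at 23439 and 21336 CPM in resident-like and at 28149.9 and 26085 CPM in Ms4a7 macrophages, log2 ratios of 0.26 and 0.29. Lpl, the lipase, was at 230.5 and 316 CPM against 223 and 339 CPM, log2 ratios of -0.05 and 0.10. Cd36, the fatty acid receptor, was at 649 and 784 CPM in resident-like macrophages and at 424 and 418 CPM in the Ms4a7 group, log2 ratios of -0.61 and -0.91. Cd36 was thus lower in the Ms4a7 group in both libraries, short of 2-fold. Fabp4 was at 132 and 104 CPM against 212 and 136 CPM, log2 ratios of 0.68 and 0.39, also short of 2-fold.

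The Lyz1 Ear2 group differed from both. It held Lpl at 976 and 1164 CPM, above the 223 to 339 CPM of the other macrophage groups, and Lgals3 at 3656 and 2070.2 CPM, near the level of the Ms4a7 group. Apoe was at 144 and 179.8 CPM there and Trem2 at 53.0 and 26.7 CPM, with 5 cells holding 90.7% and 70.6% of the Trem2 UMIs. The macrophage markers Adgre1, Csf1r, C1qa, C1qb, C1qc and Mrc1 summed to 1188 and 1806 CPM in this group, against 12737 and 13507 CPM in the Ms4a7 group, and no gene of that marker list was at 0 in both libraries.

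**Figure D2:**
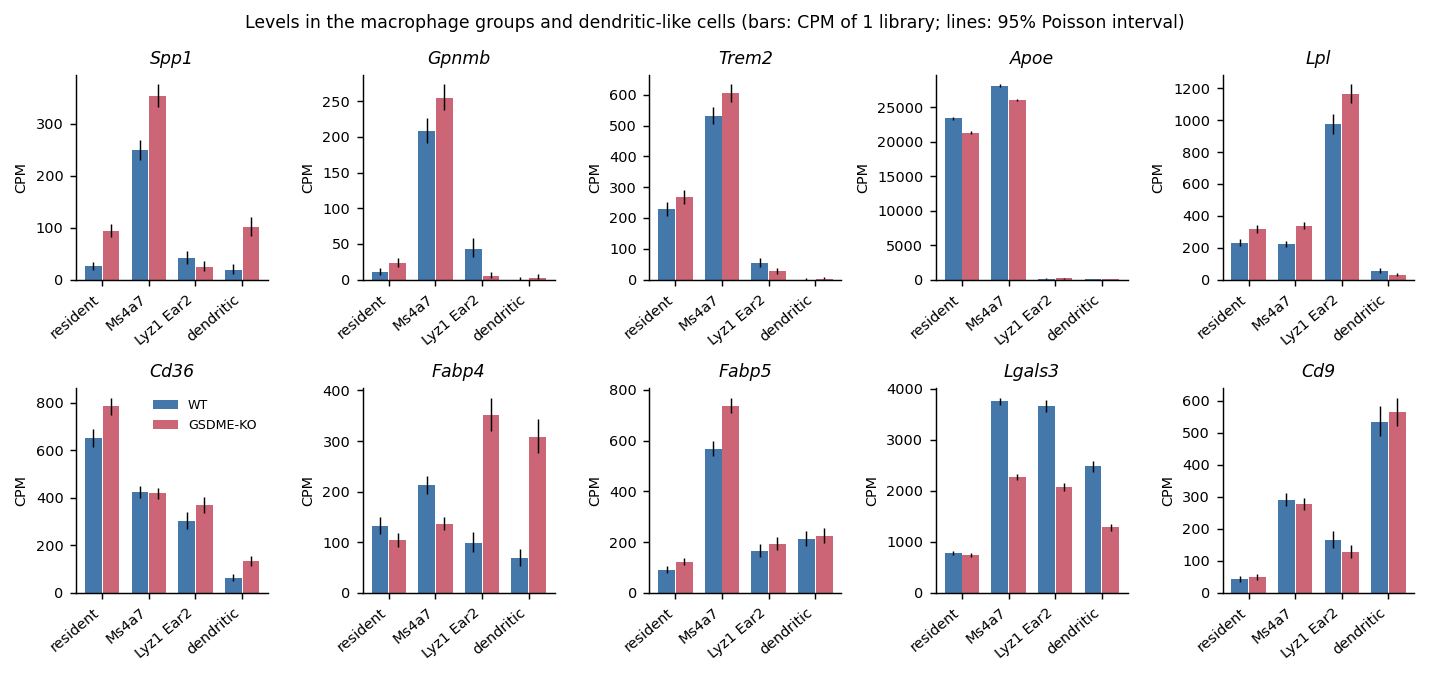
Levels (CPM, linear axis from 0) of the 10 genes in the 3 macrophage groups and in dendritic-like cells, with 1 bar per library and 95% Poisson intervals as lines. Gpnmb, Trem2, Spp1 and Fabp5 are highest in the Ms4a7 group, Lpl in the Lyz1 Ear2 group, Cd36 in the resident-like group and Cd9 in dendritic-like cells; the Lgals3 intervals of the libraries overlap only in the resident-like group.

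A finer division of macrophage-like cells placed the highest levels of Trem2, Fabp5 and Lgals3 in the same sub-cluster in both libraries. Its leading genes were Il10, Gpnmb, Cxcl1, Fabp5 and Acp5, and it held 200 and 242 cells, 21.5% (exact 95% interval 18.9 to 24.3) and 21.2% (18.9 to 23.7) of macrophage-like cells. Gpnmb stood there at 251 and 352 CPM, Trem2 at 574 and 688 CPM, Spp1 at 295 and 413 CPM and Fabp5 at 787 and 977 CPM. Lgals3 was at 5089 and 2856 CPM in the same cells. The intervals of the share overlapped between the libraries, while the levels of Spp1, Gpnmb, Trem2 and Fabp5 were each higher, and that of Lgals3 lower, in the library labelled GSDME-KO.

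At the other end, a resident-like sub-cluster led by Cd209f and Fcna (131 and 119 cells) held 2 and 5 UMIs of Spp1 and 0 and 6 UMIs of Gpnmb, while Trem2 was at 149 and 215 CPM. A sub-cluster led by Tulp3, Jun, Hspb1 and Fos (127 and 134 cells) held Spp1 at 39.2 CPM (25.8 to 57.0) among cells labelled WT and at 372 CPM (331 to 417) among those labelled GSDME-KO, and Gpnmb at 52.2 and 69.7 CPM. The library difference in Spp1 was thus wider among these cells, whose leaders include immediate early and heat shock genes, than in the sub-cluster led by Il10. A small sub-cluster led by Meg3 and Dcn (23 and 34 cells), in which the fibroblast genes Dcn and Col3a1 were among the leaders, held Gpnmb at 520.4 and 208 CPM and Spp1 at 363 and 75.5 CPM, in the library labelled WT the highest of any sub-cluster for both genes.

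**Figure D3:**
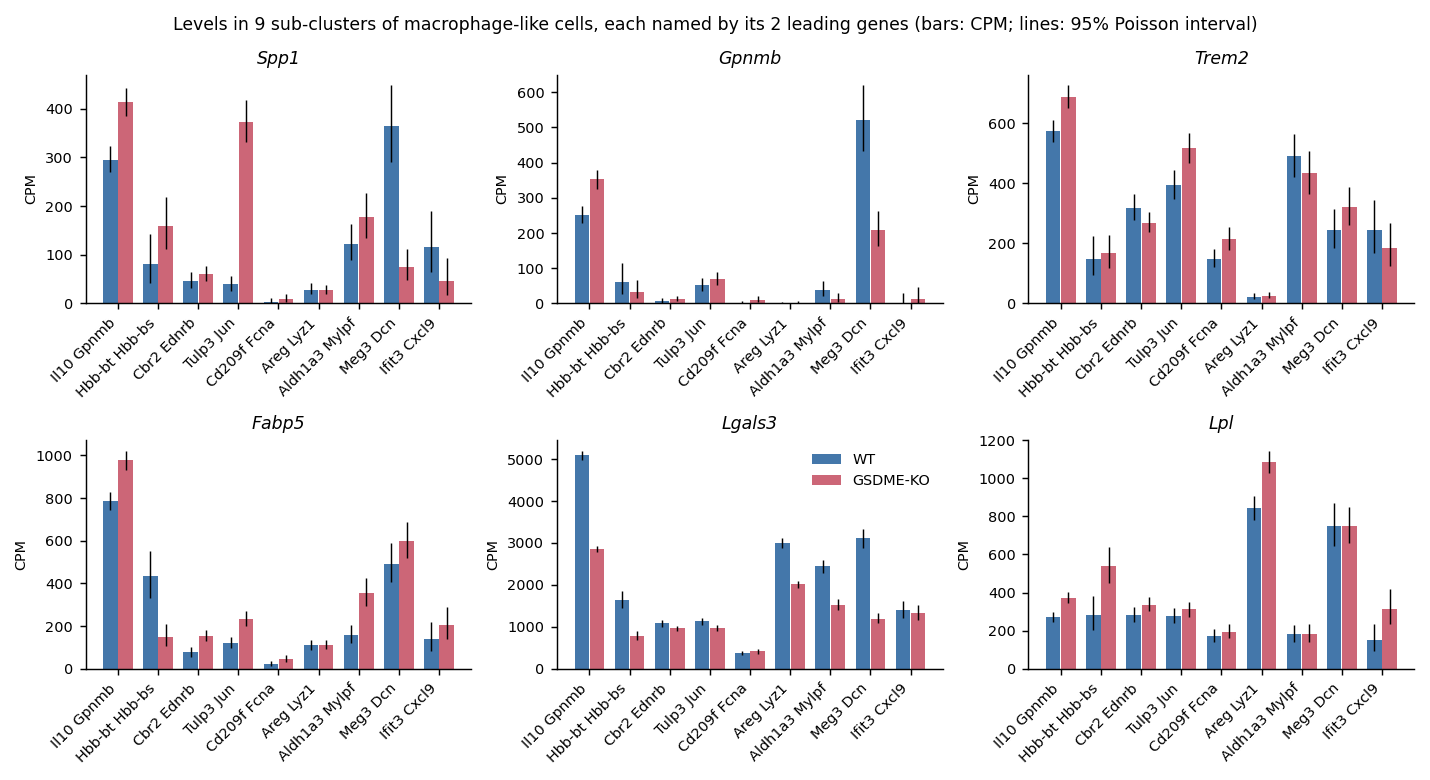
Levels (CPM, linear axis from 0) of 6 genes in the 9 sub-clusters of macrophage-like cells, each named by its leading genes, with 1 bar per library and 95% Poisson intervals as lines. Trem2, Fabp5 and Lgals3 are highest in the Il10 Gpnmb sub-cluster in both libraries, whereas Spp1 in the Tulp3 Jun sub-cluster is 39.2 CPM in one library and 372 CPM in the other.

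Within Ms4a7 macrophages some of the genes were found in the same cells more often than the product of their shares gives, and others were not in both libraries. After thinning to 1000 UMIs, Gpnmb was found in 7.42% and 13.1% of cells, Spp1 in 10.4% and 15.96%, Trem2 in 35.4% and 34.0% and Lgals3 in 77.5% and 73.5%. Among cells with a Gpnmb UMI, 55.6% and 62.5% also had one of Fabp5, against 18.4% and 24.9% of cells without Gpnmb. Trem2 was found in 59.3% and 57.1% of cells with Gpnmb, against 33.5% and 30.54% without. Spp1 and Gpnmb were found together in 9 and 22 cells, where the product of their shares gives 2.82 and 8.94. Cd36 was found in 29.6% and 39.3% of cells with Gpnmb and in 30.6% and 27.3% without, so no common direction was seen for that pair. Trem2 was found in 28.9% and 55.9% of cells with Spp1 and in 36.2% and 29.9% without, and Lgals3 in 74.4% and 80.7% of cells with Trem2 and in 79.1% and 69.8% without. For both pairs the libraries pointed in opposite directions. Some of these shares rest on few cells, such as the 27 and 56 with Gpnmb.

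Dendritic-like cells, antigen-presenting relatives of macrophages, held almost no Gpnmb or Trem2 and low Apoe, but the other genes were measured there. Macrophage-like cells were past 2-fold higher in both libraries for 5 of the 10 genes, where 14.1% of 7607 genes were, and lower for Cd9, where 4.08% were. Apoe stood at 47.2 and 38.4 CPM in dendritic-like cells against 21295 and 19423 CPM in macrophage-like cells. Gpnmb and Trem2 each had 0 UMIs among cells labelled WT and 3 UMIs among those labelled GSDME-KO. Against the 3.15 CPM that a count of 0 allows there (3 UMIs of the group's total), macrophage-like cells of the library labelled WT were at least 35.2-fold higher for Gpnmb and at least 108-fold higher for Trem2. After thinning, 0 of 110 cells had a UMI of either gene, which allows a share of up to 2.73% of cells with a UMI at that depth and does not bound the share that express the gene.

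The remaining genes divided. Lpl was at 56.7 and 28.6 CPM in dendritic-like cells against 367 and 490.3 CPM in macrophage-like cells, and Cd36 at 63.0 and 132 against 477 and 537 CPM. Cd9 was at 534 and 564 CPM in dendritic-like cells and at 184 and 168 CPM in macrophage-like cells, log2 ratios of macrophage over dendritic of -1.54 and -1.75. Lgals3, at 2477 and 1285 CPM in dendritic-like cells, did not differ from macrophage-like cells by 2-fold, with log2 ratios of 0.14 and 0.40. Fabp5 was at 213 and 224 CPM in dendritic-like cells, log2 ratios of 0.64 and 0.90.

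Among FAP-like cells, Lpl was highest in the Hsd11b1 Mme group. That group (505 and 603 cells), named for a steroid-activating enzyme and a membrane peptidase, held Lpl at 1164 and 1185 CPM against 439.7 and 430.4 CPM in the other FAP-like cells, log2 ratios of 1.40 and 1.46. It was the 1 gene of the 9 compared that was past 2-fold higher in both libraries, where 2.26% of 10590 genes were. The Clu Cyp2f2 Myoc group followed at 828 and 722 CPM and the Sfrp4 Gdf10 group at 657 and 499 CPM, so a high level was shared with other FAP groups. Tendon-like cells held the least Lpl of the FAP groups, at 133 and 138 CPM, and the Pi16 Dpp4 group held 227 and 267 CPM. Spp1 and Cd36 were past 2-fold lower in the Hsd11b1 Mme group, where 4.19% of genes were, but at no more than 8.81 CPM, and for both the direction depended on cells that also held endothelial transcripts or on the clustering. Adipocyte markers (Adipoq, Plin1, Cidec, Lep) summed to 0 and 0.131 CPM in FAP-like cells, with 3 of the 4 at 0 in both libraries.

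Gpnmb had a second site of high level among FAP-like cells. It stood at 176 and 204 CPM in the Sfrp4 Gdf10 group (142 and 134 cells) and at 122 and 185 CPM in tendon-like cells, against 9.79 and 14.4 CPM in the Pi16 Dpp4 group. The Sfrp4 Gdf10 level overlapped with that of Ms4a7 macrophages in the library labelled WT, 149 to 205 against 191 to 226 CPM by their intervals, and lay below it in the one labelled GSDME-KO. Macrophage marker genes summed to 33.6 and 12.7 CPM in the Sfrp4 Gdf10 group and Trem2 was at 2.24 and 1.06 CPM. Apoe was also highest among FAPs in that group, at 1564 and 1052 CPM and in 51.8% and 45.1% of thinned cells. Cd9 was spread over all FAP groups, from 396 and 490.1 CPM in the Pi16 Dpp4 group to 1258 and 1469 CPM in the Clu Cyp2f2 Myoc group.

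Fabp4 and Cd36 were highest in endothelial-like cells, and Fabp5 in venous-like ones. Fabp4 stood at 16149.9 and 15318 CPM in endothelial-like cells, Cd36 at 1702 and 2123 CPM and Fabp5 at 960.3 and 734 CPM. The Fabp5 level of Ms4a7 macrophages, 567 and 738 CPM, lay below the endothelial-like level among cells labelled WT and near it among those labelled GSDME-KO. Venous-like cells (47 and 28 cells) held the highest Fabp4, at 23139 and 20716 CPM, and Fabp5, at 2146 and 1450.4 CPM. Lymphatic-like cells (80 and 76 cells) held 259 and 255 CPM of Fabp4 and 44.7 and 77.7 CPM of Cd36, with 5 cells holding 88.7% and 88.2% of the Fabp4 UMIs. They held instead the highest endothelial Cd9, at 1901 and 1628 CPM. Lpl was at 457 and 383 CPM in endothelial-like cells, and Gpnmb and Trem2 had no more than 10 UMIs there in either library.

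**Figure D4:**
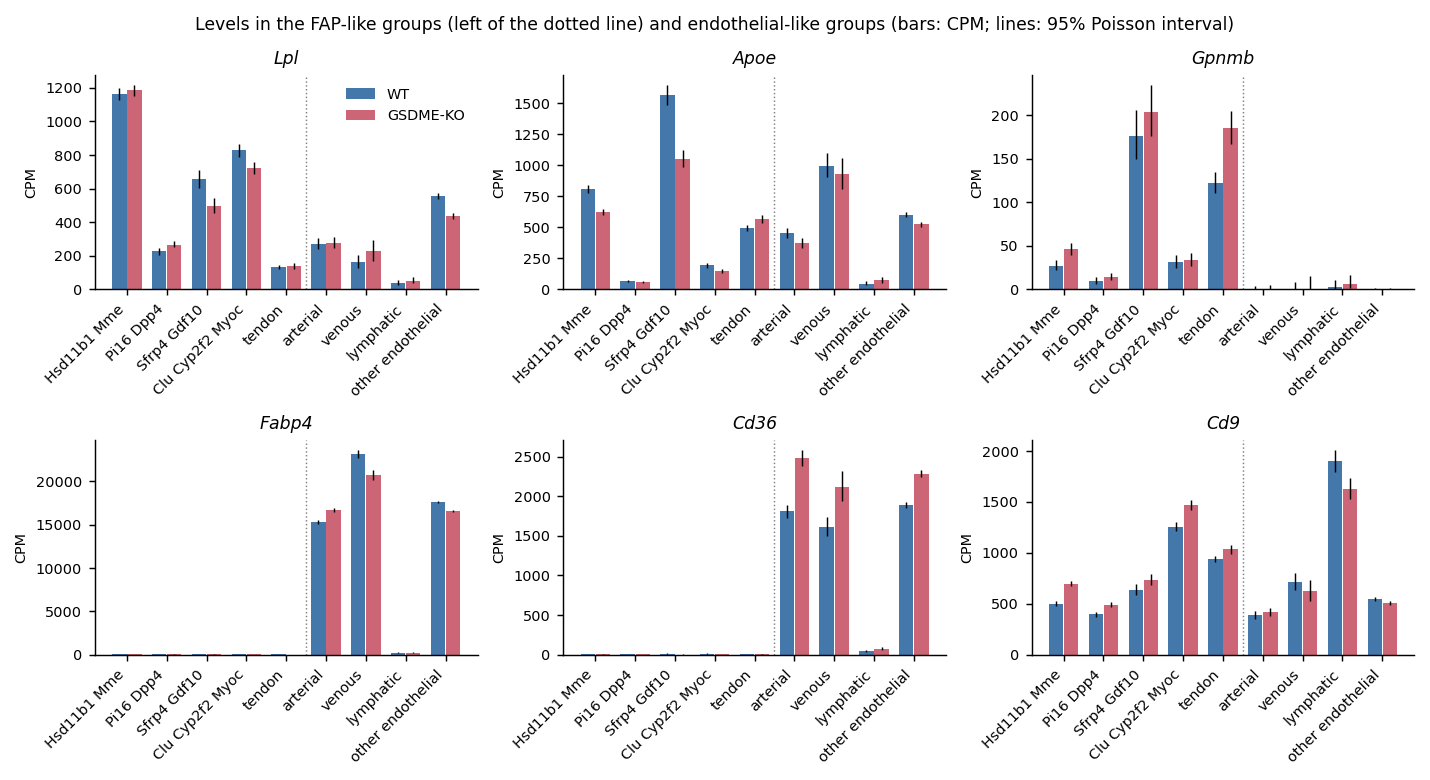
Levels (CPM, linear axis from 0) of 6 genes in the FAP-like groups, left of the dotted line, and the endothelial-like groups, right of it, with 1 bar per library and 95% Poisson intervals as lines. Lpl is highest in Hsd11b1 Mme FAPs, Gpnmb and Apoe in Sfrp4 Gdf10 FAPs, Fabp4 in venous-like cells, and Cd9 in lymphatic-like cells, in both libraries.

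Between the libraries, Lgals3 was the gene with a difference in the most cell groups. Macrophage-like cells labelled WT held 2737 CPM (2693 to 2782) and those labelled GSDME-KO 1699.55 CPM (1668 to 1731), which gives -0.69 (-0.72 to -0.65) as the log2 ratio. The ratio was -0.72 in Ms4a7 macrophages, -0.95 in dendritic-like, -2.36 in endothelial-like and -0.77 in FAP-like cells. Resident-like macrophages did not follow, at 781 and 748 CPM and a ratio of -0.06 (-0.16 to 0.04). The share of thinned cells with a Lgals3 UMI was 59.9% and 60.2% in all macrophage-like cells. It was 77.5% and 73.5% in Ms4a7 macrophages (282 of 364 and 313 of 426 cells) and 35.5% and 44.0% in resident-like macrophages. These shares are given without intervals, and the higher resident-like share went with no higher level in CPM. In endothelial-like cells the levels were 43.1 and 8.37 CPM, and 5 cells held 46.3% of the UMIs of the library labelled WT. Among lymphocytes, Lgals3 was at 709 and 501 CPM in T-like cells, a ratio of -0.50 (-0.77 to -0.23). It was at 60.2 and 151 CPM in NK-like cells (9 and 19 UMIs). B-like cells held it at 30.0 and 52.3 CPM (4 and 13 UMIs), and both groups were under the minimum for a comparison. The lymphocytes thus gave no single level of RNA from other cells for Lgals3, and whether the T-like RNA was the cells' own was not tested. The ratio was -1.34 in muscle stem cell-like and -2.22 in Schwann-like cells. Among FAP groups it was -0.79 in Pi16 Dpp4 cells and -0.53 (-0.72 to -0.34) in tendon-like cells, at 232 and 161 CPM. In FAP-like sub-clusters without a name it was -1.11 (-1.30 to -0.92), at 94.4 and 43.8 CPM. The intervals of the Hsd11b1 Mme, Sfrp4 Gdf10 and Clu Cyp2f2 Myoc groups included 0. Whether RNA from other cells had a part in these ratios was not tested.

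Lgals3 was the 1 gene of 10 past 1.5-fold in macrophage-like cells, where 11.5% of 9121 genes that reached 50 UMIs were. Spp1 came close, with 135 and 199 CPM and 0.56 (0.43 to 0.70) on the log2 scale. The ratios of Lpl and Fabp5 were 0.42 and 0.33. The ratios of Gpnmb, Trem2 and Cd36 were 0.18, 0.14 and 0.17. Apoe, Cd9 and Fabp4 had ratios of -0.13, -0.13 and 0.02. The Fabp4 value joins groups that differed, at -0.34 in resident-like, -0.64 in Ms4a7 and 1.84 in Lyz1 Ear2 macrophages (100 and 448 UMIs). It was -0.35 without the 5 cells holding most of its UMIs in each library. The median ratio of the 10 genes was 0.16 and that of all genes compared was -0.04. Without the 5 cells holding most of a gene's UMIs in each library, 4 genes were past 1.5-fold, Spp1 at 0.79, Gpnmb at 0.84, Fabp5 at 0.64 and Lgals3 at -0.64. The share of all genes past 1.5-fold was not computed in that setting, so this count has nothing to be set against.

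In resident-like macrophages, Spp1 and Gpnmb were past 1.5-fold, 2 of the 10 genes, where 14.8% of 6873 genes were. Spp1 was read as 46 and 216 UMIs, 25.4 CPM (18.6 to 33.8) and 93.4 CPM (81.3 to 107), which is 1.88 (1.42 to 2.37) on the log2 scale. It stayed past 1.5-fold in all 11 alternative settings that gave a value, at 0.98 to 2.12. Gpnmb was read as 19 and 55 UMIs, a ratio of 1.18 (0.41 to 2.02). This ratio stayed past 1.5-fold in 7 of the 9 alternative settings that gave a value. It was not past 1.5-fold with means over cells, and it turned to -0.36 where the group was drawn from UMIs of marker genes. After thinning, 7 of 375 cells labelled WT and 8 of 475 labelled GSDME-KO had a Gpnmb UMI. The higher level thus came without a higher share of thinned cells with a UMI, and both shares rest on few cells. Beside these values, the 5 resident markers summed to 4041 and 3253 CPM in the group, the 6 markers of the Ms4a7 group to 400.3 and 541 CPM, and the 4 red cell markers to 51.3 and 1208 CPM. None of these lists had a gene at 0 in both libraries, and their part in the ratios of Spp1 and Gpnmb was not tested.

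In Ms4a7 macrophages, 3 of the 10 genes were past 1.5-fold, where 13.5% of 6988 genes were. Lpl was read at 223 and 339 CPM, or 0.61 (0.46 to 0.76) on the log2 scale, and it stayed past 1.5-fold in all 11 settings that gave a value. Fabp4 was at 212 and 136 CPM, a ratio of -0.64 (-0.83 to -0.45), which was -0.17 without shallow and mixed sub-clusters. Lgals3 is given above. Trem2, Gpnmb and Spp1 had ratios of 0.19, 0.29 and 0.51 there and Apoe -0.11. Without the 5 cells holding most of a gene's UMIs in each library, Gpnmb was at 0.92, Spp1 at 0.74 and Fabp5 at 0.77. In that setting Lpl (0.71) and Lgals3 (-0.72) were also past 1.5-fold, and Fabp4 (-0.46) was not. The share of all genes past 1.5-fold was not computed there. Beside them, the 5 FAP markers summed to 250.1 and 558 CPM and the 6 endothelial markers to 61.0 and 24.5 CPM, with no gene of either list at 0 in both libraries. The ratio of Lpl was 0.60 without the shallow and mixed sub-clusters.

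**Figure D5:**
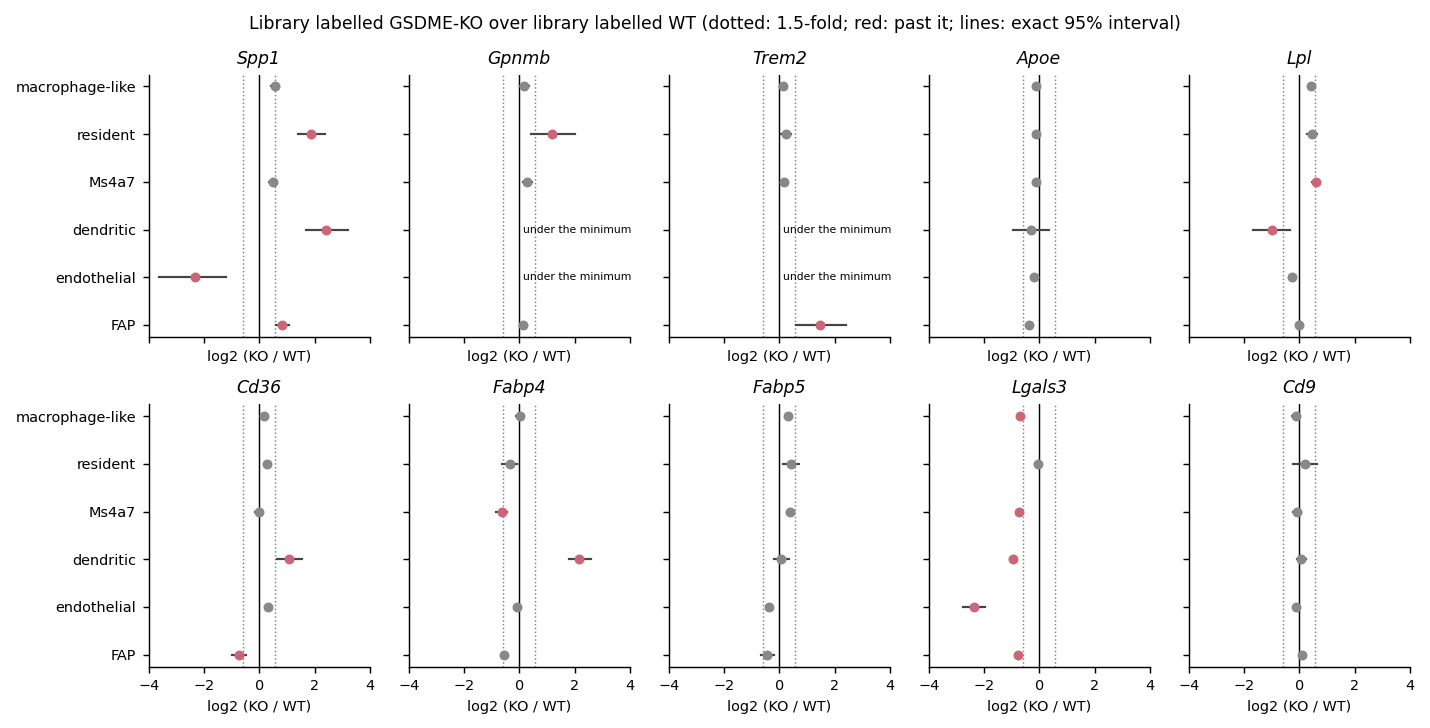
Log2 ratio of the library labelled GSDME-KO over that labelled WT for the 10 genes in 6 cell groups, with exact 95% intervals that cover counting error only; dotted lines mark 1.5-fold and red points lie past it. Lgals3 is lower in 5 of the 6 groups, Apoe, Fabp5 and Cd9 are past the fold in none, and Spp1 is higher in resident-like macrophages, dendritic-like cells and FAP-like cells but lower in endothelial-like cells.

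Outside macrophages, several of the library differences rested on few cells. In dendritic-like cells 5 of the 8 genes compared were past 1.5-fold, where 17.3% of 4183 genes were. Spp1 was at 18.9 and 101 CPM there, and 5 cells held 72.6% of the 113 UMIs labelled GSDME-KO. Fabp4 was at 68.2 and 308 CPM, with 84.1% of the UMIs labelled GSDME-KO in 5 cells, and the ratio of 2.18 became 0.23 without such cells. The 6 endothelial markers summed to 34.6 and 172 CPM in the same groups, with none at 0 in both libraries. Cd36 had a ratio of 1.07, which was 0.41 without called doublets. Lpl had one of -0.99, from 54 and 32 UMIs, which was -0.11 without called doublets and also short of 1.5-fold with means over cells.

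Endothelial-like cells had 2 of 8 genes past 1.5-fold, Spp1 and Lgals3, where 7.95% of 10386 genes were, and Spp1 rested on 43 and 8 UMIs. The 4 red cell markers summed to 1147 and 4079 CPM there and the 5 FAP markers to 289 and 231 CPM, with none at 0 in both libraries, and their part in the result was not tested. FAP-like cells had 4 of 10, where 10.0% of 12087 genes were. Spp1 was at 12.4 and 22.1 CPM in FAP-like cells, with 65.7% of the UMIs labelled GSDME-KO in 5 cells, and its ratio of 0.83 became 0.18 without such cells and -0.11 among cells without an endothelial UMI. Cd36 was at 17.9 and 10.7 CPM, a ratio of -0.74, and the 6 endothelial markers summed to 65.3 and 39.0 CPM in the same cells, with none at 0 in both libraries. Among cells without an endothelial UMI the Cd36 ratio was close to this value, and it stayed past 1.5-fold in all 13 settings. Trem2 was read as 15 and 52 UMIs, or 0.826 and 2.28 CPM, and 28 of the 52 lay in 14 cells of a mixed sub-cluster led by Cd74, H2-Aa and H2-Ab1. The leaders of that sub-cluster also included the macrophage markers C1qa and C1qb, along with Lyz2 and Cd14. Without shallow and mixed sub-clusters, Trem2 in FAP-like cells was under the minimum for a comparison. In lymphocytes Trem2 ran from 0 UMIs in NK-like cells to 40.2 CPM (10 UMIs) in B-like cells labelled GSDME-KO. Whether the FAP-like level was RNA from other cells was not tested. Lpl stood at 575 and 574 CPM in FAP-like cells, and the interval of its log2 ratio ran from -0.04 to 0.03. Apoe, Fabp5 and Cd9 were past 1.5-fold in none of the 6 groups. For Fabp5 this depended on few cells, since without the 5 cells holding most of its UMIs in each library its ratio went from 0.43 to 1.16 in resident-like, from 0.38 to 0.77 in Ms4a7 and from 0.07 to 0.83 in dendritic-like cells, and it was 1.06 in resident-like macrophages without shallow and mixed sub-clusters.

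Other genes of the same pathways were read from 8 lists. The TREM2 signaling list (Tyrobp, Syk, Plcg2, Inpp5d, Hcst) had none of 5 past 1.5-fold between libraries in macrophage-like, resident-like or Ms4a7 macrophages, and none past 2-fold between the Ms4a7 and resident-like groups. Of all genes, 11.5%, 14.8% and 13.5% were past 1.5-fold in these groups in that order. Past 2-fold between the Ms4a7 and resident-like groups, 2.78% were higher and 4.20% lower. For lists of 5 or 10 genes, none past a limit lies near these shares. The lysosome list had none of 10 past either limit in these groups, and 8 of 10 were past 2-fold higher in macrophage-like than in dendritic-like cells, where 14.1% of all genes were, among them the cathepsins Ctsb and Ctsd at log2 ratios of 3.53 and 4.72 in the library labelled WT. Hilpda, which encodes a lipid droplet protein that restrains lipolysis, held 98.8 and 191 CPM there, a library ratio of 0.95 over all macrophage-like cells, and at 148 and 296 CPM in Ms4a7 macrophages, a ratio of 1.001. It was also higher in the Ms4a7 than in the resident-like group, by 2.54 and 2.14 on the log2 scale. Plin2, the main droplet coat protein, had a library ratio of 0.68 in resident-like macrophages, and both genes made up the 2 of 8 compared in the storage list that were past 1.5-fold there, where 14.8% of all genes were, so the count lies near the share over all genes.

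The list of cholesterol efflux and its control held genes on both sides. Mylip, an E3 ubiquitin ligase controlled by oxysterol-sensing receptors, was lower in the library labelled GSDME-KO in macrophage-like (-0.67), resident-like (-0.72), Ms4a7 (-0.71) and FAP-like (-0.67) cells. Nr1h3, the oxysterol-sensing nuclear receptor LXRα, held 15.5 and 9.39 CPM over macrophage-like cells and a ratio of -0.73. Abcg1, a cholesterol exporter, and Nr1h3 were higher and Mylip lower in the Ms4a7 than in the resident-like group. Of the PPAR list, Pparg had library ratios of 1.23 in resident-like and 0.59 in Ms4a7 macrophages, from 14 and 42 and from 71 and 125 UMIs. Among uptake receptors, Olr1 had a ratio of 0.79 in macrophage-like and Msr1 of 0.59 in Ms4a7 macrophages. No osteopontin receptor was past 1.5-fold in any group, where 7.95% to 17.3% of all genes were. Itgav and Itgb5 were past 2-fold higher in Ms4a7 than in resident-like macrophages, where 2.78% of all genes were.

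Of the partners of lipoprotein lipase, Gpihbp1, its anchor on capillary walls, had ratios of -1.45 in macrophage-like and -1.14 in FAP-like cells at levels of no more than 12.0 CPM. Angptl4, a secreted inhibitor of the lipase, was at 24.9 and 41.7 CPM in FAP-like cells, a ratio of 0.74. In dendritic-like cells 4 of 10 lysosome genes were past 1.5-fold lower in the library labelled GSDME-KO, where 7.77% of all genes were, namely Npc1 (-0.69), Ctsl (-0.89), Ctsz (-0.62) and Cd63 (-0.71), as was the uptake receptor Lrp1 (-0.70). Sel1l, which helps the lipase mature in the endoplasmic reticulum, had a ratio of 0.59 there. Endothelial-like cells had Lrp1 at -0.65 and Dgat2 at -0.90. Dgat2, an enzyme of triglyceride synthesis, was also lower in macrophage-like (-1.23) and FAP-like cells (-0.90), and Tyrobp had a ratio of 0.59 in FAP-like cells at 4.57 and 6.88 CPM.

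The genes with the most similar pattern were found by Pearson correlation of log2(CPM + 10) over 46 points, the 23 cell groups of both libraries, which share libraries and differ in depth, so the values are descriptions. Trem2 was most like Fcgr1 (r = 0.95), C5ar1 and Cd300lb, Apoe like P2ry12 (0.75), Pf4 and Ms4a7, and Lgals3 like Csf2ra (0.86), Alox5ap and Adam8. Spp1 was most like Fcgr4 (0.77), Rnf149 and Gdpd3, and Gpnmb like Cyp27a1 (0.68), Tmem119 and Acp5. Fabp4 was most like C1qtnf9 (0.95), Esam and Flt1, Cd36 like Cd93 (0.90), Pdgfb and Fabp5, and Fabp5 like Cd36 (0.85), Pdgfb and Plxnd1. Lpl was most like Agmo (0.75), Colgalt1 and Adam9, and Cd9 like Fxyd6 (0.77), Upp2 and Angptl4. Cd36 and Fabp5 were the 1 pair of the 10 genes that named each other.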

How the data were processed

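The authors deposited 1 table of natural log values, ln(1 + UMIs per 10000) per gene and cell, with both libraries side by side. Per the labels the reads went through Cell Ranger 2.1.1 on mm10, while the methods of the study name a later version, and Seurat, DoubletFinder and a limit on mitochondrial reads followed. The table held 13432 cells, fewer than the methods state. Cells were assigned by the barcode suffix. Inverting the log and scaling each cell returned UMIs that lay within 0.05 of a whole number for 99.9995% of values above 0. UMIs were summed per library and cell group into CPM, with exact 95% Poisson intervals, and library ratios had exact binomial intervals. Both cover counting error only. Genes with at least 50 UMIs over both libraries were compared at 1.5-fold between libraries, and genes with at least 50 UMIs in each library at 2-fold between cell groups. With 1 library per genotype no test was run, and log2 ratios carry no pseudocount, with a count of 0 set to the floor of 3 UMIs.

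Clustering used 2000 variable genes without the 10 genes, 30 principal components, the steps of Harmony written anew to integrate the libraries, and Louvain clusters in igraph 0.11.9 at resolution 0.8, and names came from fixed markers. The authors' own cell labels were not used here. Named genes were the 10, list genes past the fold, up to 4 per list and comparison by size, and for each of the 10 the 3 most correlated. Members, lists, markers and naming rules were chosen with earlier results of these data known. Procedures were tested on simulated data. The result for 1 gene of the uptake receptor list is not reported here.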

Additional observations from a re-analysis of the deposited data

Results flagged for a closer look

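The groups searched were macrophage-like, resident-like, Ms4a7, dendritic-like, endothelial-like and FAP-like cells, and no others. Among these, for 4 of the 10 genes the log2 ratio of the library labelled GSDME-KO over that labelled WT pointed one way in some cell groups and the other way in others, past 1.5-fold in both directions. These differences between cell groups were not tested, since each rests on 1 library per genotype. Spp1 was higher in the library labelled GSDME-KO in resident-like macrophages (1.88), dendritic-like cells (2.42) and FAP-like cells (0.83, but -0.11 among cells without an endothelial UMI) and lower in endothelial-like cells (-2.32). Lpl was higher in Ms4a7 macrophages (0.61) and lower in dendritic-like cells (-0.99), but the latter was -0.11 without called doublets and so not past 1.5-fold. Fabp4 was lower in Ms4a7 macrophages (-0.64, but -0.17 without shallow and mixed sub-clusters) and higher in dendritic-like cells (2.18, but 0.23 without the 5 cells holding most of its UMIs). Cd36 was higher in dendritic-like cells (1.07, but 0.41 and not past 1.5-fold without called doublets) and lower in FAP-like cells (-0.74). The Lyz1 Ear2 group, not searched, was past 1.5-fold for Gpnmb (-2.97, 44 and 7 UMIs), Trem2 (-0.99, 54 and 34 UMIs), Spp1 (-0.72), Fabp4 (1.84) and Lgals3 (-0.82). Gpnmb and Trem2 thus also pointed both ways, against 1.18 in resident-like macrophages and 1.46 in FAP-like cells. The 1.18 of Gpnmb was -0.36 where the group was drawn from UMIs of marker genes, and not past 1.5-fold with means over cells.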

How the results depend on the processing

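No paired analysis was possible because each genotype has 1 library and the result comes from no test. The count of 6 genes higher in Ms4a7 than in resident-like macrophages was 5 where the groups were drawn from marker UMIs and 6 in the other settings that gave one. The macrophage groups did not separate without integration of the libraries or at resolution 0.4, where dendritic-like cells did not either, and no values were had there. Past 1.5-fold between libraries were, in macrophage-like cells, 2 genes at resolution 0.4, with means over cells, with ratios centered on the median of all genes, and without shallow and mixed sub-clusters, a setting chosen after seeing the data, and 4 without the 5 cells holding most UMIs of a gene, which gave 5 in Ms4a7 macrophages. With at least 200 UMIs the counts were 1 in resident-like, 3 in dendritic-like and 1 in endothelial-like cells, dendritic-like cells also had 3 without Scrublet doublets and without the 5 cells, and endothelial-like cells 1 without the 5 cells or without cells holding FAP transcripts. FAP-like cells had 2 without endothelial UMIs. Higher in Hsd11b1 Mme FAPs were 2 genes without integration, at resolution 0.4 and without mixed sub-clusters. Lower there was 1 without integration, at resolution 1.2, with means over cells, without doublets and without mixed sub-clusters, and 0 without endothelial UMIs. Signs turned for Gpnmb in resident-like macrophages with marker UMIs (-0.36), for Spp1 in FAP-like cells without endothelial UMIs (-0.11), for Spp1 in Hsd11b1 Mme FAPs labelled WT at resolution 0.4 (1.75), and for Cd36 there without endothelial UMIs (0.0438, labelled GSDME-KO) and without mixed sub-clusters (0.10 and 0.0541). The causes were not tested, and the share over all genes was not computed under the alternative settings. Gpnmb was found in 23.2% and 29.7% of Ms4a7 macrophages with no thinning and in 12.9577% and 18.3% at 2000 UMIs. Scrublet called 101 (1.59%) and 109 (1.54%) cells doublets. Lgals3 stayed past 1.5-fold, lower in the library labelled GSDME-KO, in all 5 groups in every setting that gave a value.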

Other observations

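Cell types outside the comparisons held high levels of the 10 genes. Schwann-like cells (207 and 175 cells in the libraries labelled WT and GSDME-KO), the glia of peripheral nerve, held the highest Cd9 of the groups with over 100 cells, at 3289 and 2843 CPM and in 94.2% and 88.9% of thinned cells. They held Spp1 at 316 and 194 CPM, with 5 cells holding 55.9% and 52.4% of its UMIs, and Apoe at 2326 and 2341 CPM. Muscle stem cell-like cells (249 and 248 cells) held Apoe at 1266 and 1231 CPM and in 62.1% and 55.3% of thinned cells, above the 10.6% to 29.8% of the lymphocytes.

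In the neutrophil-like group of the library labelled WT (24 cells), 1 cell held all 298 UMIs of Spp1. The group's 2291 CPM is thus the level of that cell, and the group stood above every other for Spp1 in that library.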
